A study of Mus musculus with 2 samples.

Results

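The contrast described here asks which autosomal genes changed differently in the somatic cells of the foetal ovary and testis during their first day in culture. It compares the change from 0 h to 24 h in XX cells with the same change in XY cells, over 16 of the 39 somatic libraries used here, 4 in each group. Of 14543 autosomal genes that passed the filter on low counts, 869 were called, which is 5.98%. A gene was called when its sex-by-time difference had a false discovery rate (FDR) below 0.05 in edgeR's quasi-likelihood test and a size of at least 1.5-fold. This difference is the log2 change in XX minus the log2 change in XY, so a positive value means that the gene rose more or fell less in XX. All levels below are CPM, a gene's count scaled to its library's total and composition so that libraries of unequal depth can be compared.

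The gonads came from E12.5 embryos of a cross between ASMU Swiss mice and mice of a 129svJT2 background that carry an Oct4-eGFP transgene, which marks germ cells, and all groups were labelled WT. The XX 0 h (F2, F3, F4, F5) and XY 0 h (M2, M3, M5, M6) libraries were made from uncultured gonads. The XX 24 h (F4, F5, F6, F9) and XY 24 h (M2, M3, M4, M5) libraries were made from gonad-mesonephros explants kept for 24 h in medium with the vehicle DMSO. Several gonads were pooled for each library, the mesonephros was removed, and GFP-negative cells were sorted, so a library is a mixture of all the somatic and blood cell types of several gonads. Time and culture cannot be told apart, because every 24 h library was cultured and no 0 h library was. Values per library are given in the order above.

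In the foetal testis, SOX9 directs supporting cells to become Sertoli cells, which signal through FGF9, desert hedgehog and other products to Leydig, interstitial and germ cells. In the foetal ovary, WNT4, R-spondin 1 and later FOXL2 direct the supporting cells to become pre-granulosa cells, while germ cells begin meiosis. Sertoli cells of the mouse also recruit foetal Leydig cells, which make androgens from cholesterol, starting with the side-chain cleavage enzyme CYP11A1.

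Library totals ran from 1380707 to 4836550 counts over the 16 libraries, with the lowest in XX 0 h F4. Counts of the X-inactivation transcript Xist were 1090 or more in every XX library and 10 or fewer in every XY library of the contrast. The summed level of a list of Sertoli markers was 3202 to 3705 CPM in XY 0 h and 346 to 483 CPM in XX 0 h, and that of pre-granulosa markers was 2327 to 2784 CPM in XX 0 h and 416 to 478 CPM in XY 0 h, so the labels hold. Blood and germ cell transcripts were present in the sorted cells of every group. The erythroid list summed to 8958 to 15855 CPM in XX 0 h, 971 to 2207 in XX 24 h, 15244 to 19593 in XY 0 h and 2760.4 to 8109 in XY 24 h. The macrophage list lay between 82.5 and 118 CPM in the 0 h libraries and between 37.3 and 111 CPM in the 24 h libraries. Among XY 24 h libraries, M2 held more Sertoli transcripts (a summed 2469 CPM) than the group's median (1639 CPM) and lowest library (1617 CPM), and among XX 0 h libraries, F2 and F3 held more Sox9 (133 and 157 CPM) than F4 and F5 (54.7 and 69.5 CPM). Calls of named genes that were lost or gained without F2 and F3 together, or without M2, are given beside the genes.

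The 869 called genes comprised 482 with a positive difference (3.31% of the genes tested) and 387 with a negative difference (2.66%), and 826 of them were protein coding. The median difference over all autosomal genes tested was -0.01 after TMM scaling, which centres the bulk of genes, and -0.08 with total counts alone, which gave 45.9% positive calls against 55.5%. The median size among called genes was 1.23 on the log2 scale. In 47 of the called genes, 1 or more of the 4 groups had no library above 3 counts, and in 9 a whole group had no count, so their fitted changes depend on the prior count of the fit. Tests of whether the difference exceeds 1.5-fold, which set a higher bar, called 246 genes with edgeR's glmTreat and 114 with limma's voom and treat, while 799 were called by the first test without XX 0 h F2 and F3, and 908 without XY 24 h M2.

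**Figure D1:**
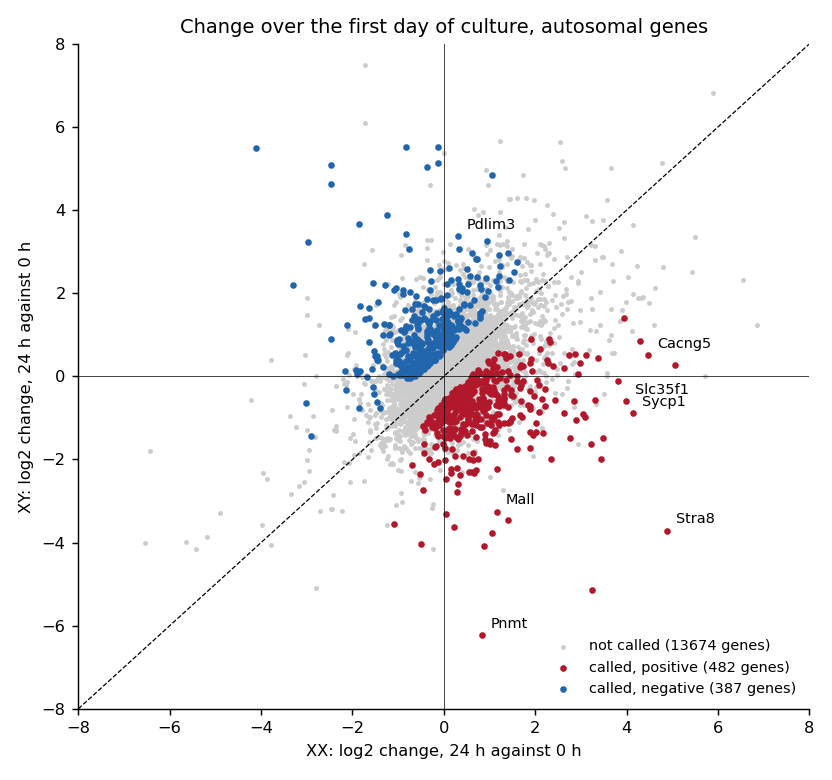
Each point is an autosomal gene, placed by its fitted log2 change from 0 h to 24 h in XX (horizontal axis) and in XY (vertical axis), with the dashed line marking equal change. The 482 red genes with a positive difference lie below the line, with Stra8 (8.59) the farthest of them, and the 387 blue genes with a negative difference lie above it.

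More genes changed in XY than in XX when each sex was tested on its own. Over 24 h, 759 autosomal genes rose in XX (5.22%) and 343 fell (2.36%), against 1289 that rose in XY (8.86%) and 804 that fell (5.53%). Among the genes with a positive difference, 207 fell in XY and passed no test in XX, 135 rose in XX and passed no test in XY, 43 rose in XX and fell in XY, 4 rose and 1 fell in both sexes, and 92 passed neither test on its own. Among the genes with a negative difference, 213 rose in XY and passed no test in XX, 67 fell in XX and passed no test in XY, 22 rose in both sexes, 18 fell in XX and rose in XY, 4 fell in both sexes, and 63 passed neither test. These counts share the libraries of the contrast and describe its members only.

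The called genes did not all move the sexes apart. The gap between XX and XY was called for 2514 autosomal genes at 0 h (17.3%) and for 2821 at 24 h (19.4%). Among the 869 genes, 304 had a called gap at 24 h and none at 0 h, and 64 had a wider gap at 24 h than at 0 h on the same side. In contrast, 274 had a called gap at 0 h and none at 24 h, and 97 had a narrower gap at 24 h on the same side. The gap turned from one sex to the other in 39 genes, 33 of them from XY to XX, and 91 genes had no called gap at either time. The size of the gap was larger at 24 h than at 0 h in 418 genes and smaller in 451, so divergence describes only a part of the set.

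**Figure D2:**
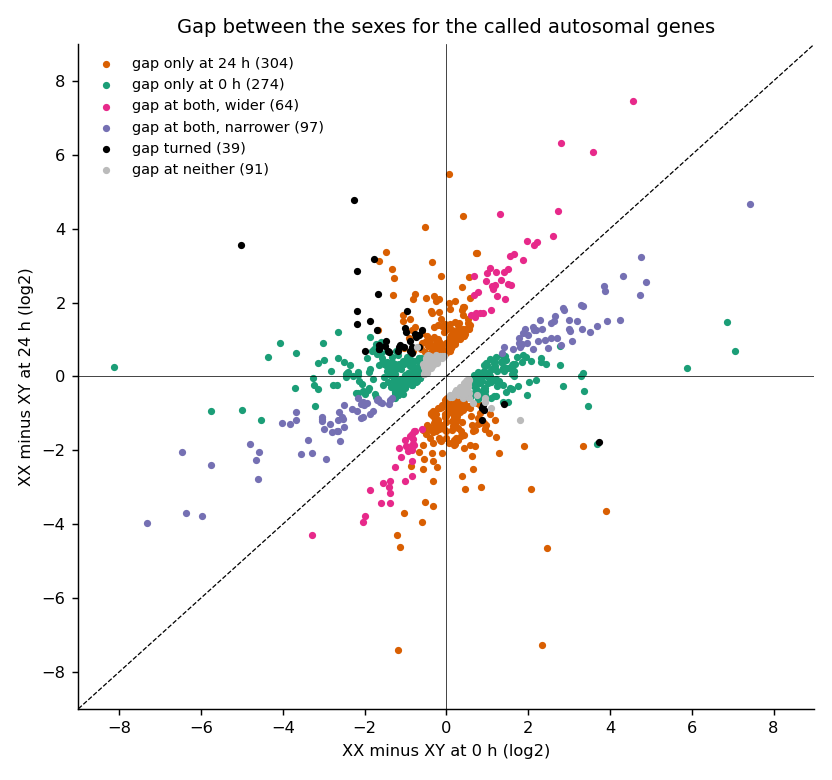
Each point is 1 of the 869 called genes, placed by the fitted XX minus XY difference in level at 0 h and at 24 h (both log2) and coloured by whether that gap was called at either time. The orange genes (304) lie along the vertical axis, where the sexes parted, and the green genes (274) along the horizontal axis, where they drew level.

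XX and XY explants cultured for 72 h in DMSO gave 8 libraries that the contrast did not use and that were sequenced in another pool. At 72 h, 1367 autosomal genes were higher in XX (9.4%) and 1563 were higher in XY (10.7%). Of the 482 genes with a positive difference, 194 (40.2%) were higher in XX at 72 h and 61 (12.7%) were higher in XY. Of the 387 with a negative difference, 155 (40.1%) were higher in XY at 72 h and 34 (8.79%) were higher in XX. The shares are given by kind of gap. These kinds were set in part by the gap at 24 h, and the 72 h share among all genes with a called gap at 24 h was not computed. The shares of all autosomal genes are therefore not a matched comparison for the kinds with a gap at 24 h. Of the 304 genes whose gap was called at 24 h and not at 0 h, 215 (70.7%) were called at 72 h on the same side and none on the other side. Of the 64 genes with a widening gap, 62 (96.9%) were called on that side at 72 h and 1 on the other. Of the 274 genes whose gap was called at 0 h and not at 24 h, 28 (10.2%) were called at 72 h on the side towards which they had moved and 35 (12.8%) on the side from which they had come, near the shares of all genes. Of the 97 genes with a narrowing gap, 3 (3.09%) were called at 72 h on the side towards which they had moved and 58 (59.8%) on the side where the gap had been at 0 h and 24 h. Of the 39 genes whose gap turned, 23 (59%) were called on the new side and 1 on the old, and of the 91 with no gap at either time, 18 (19.8%) were called on the side of the difference and none on the other.

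**Figure D3:**
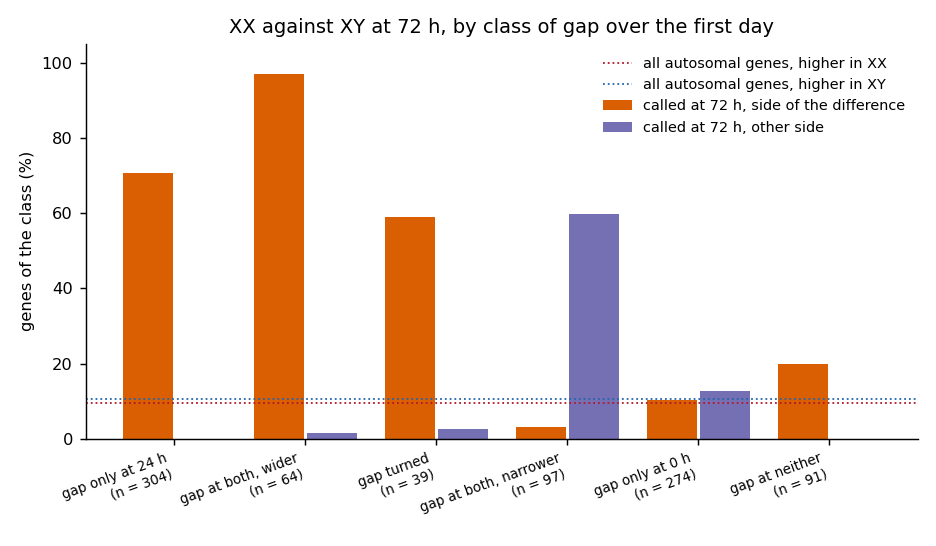
Bars give, for each class of gap, the percentage of its genes called between XX and XY at 72 h, on the side of the sex-by-time difference (orange) or on the other side (purple), with dotted lines for all autosomal genes. The classes whose gap opened or widened stand at 70.7% and 96.9%, and the class whose gap closed stands at 10.2% and 12.8%. No line is drawn for all genes with a called gap at 24 h.

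Sertoli cell genes were called in 1 direction. Of 22 Sertoli genes tested, 9 were called, all with a positive difference, beside 5.98% of all autosomal genes. The median difference was 1.20 beside -0.01 for all autosomal genes. In XY, 17 of the 22 fell over 24 h, with a median change of -1.05, while 4 rose and 1 fell in XX. In bulk samples such as these, fewer cells of a type and less RNA per cell cannot be told apart. Without XY 24 h M2 the count was 10, without XX 0 h F2 and F3 it was 11, and leaving out single libraries gave 6 to 10. Tested against a 1.5-fold change, the count was 5 with glmTreat and 2 with voom and treat. A fit with the replicate number as a term gave 6.

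Tesc, which encodes the calcium-binding protein tescalcin of Sertoli cells (chr5:118165808-118202091, GRCm39), had 149, 149, 129 and 128 CPM in XY 0 h and 59.0, 26.5, 27.8 and 25.6 CPM in XY 24 h. The XX libraries held 3.42, 0.89, 1.54 and 0.751 CPM at 0 h and 3.12, 2.94, 3.83 and 0.394 CPM at 24 h. All XY 24 h libraries were below all XY 0 h libraries, with M2 the least changed, and the XX groups overlapped at 12 counts a library or fewer. The difference was 2.66 (SE 0.71, FDR 0.012), and XY was still higher at 72 h, with an XX minus XY value of -4.63 (SE 0.41, FDR 2.1e-13). Without M2 the Tesc difference was 3.01.

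Ptgds, which encodes the prostaglandin D2 synthase of Sertoli cells (chr2:25352795-25362601, GRCm39), had 403, 385, 299 and 338 CPM in XY 0 h and 315, 213, 161 and 199.7 CPM in XY 24 h. It had 23.1, 13.4, 10.8 and 10.1 CPM in XX 0 h and 26.7, 41.0, 37.3 and 22.1 CPM in XX 24 h. It fell in XY and rose in XX, with a difference of 1.82 (SE 0.40, FDR 0.0014), and the XX and XY libraries did not overlap at either time. Within XY, the highest 24 h library reached the range of the 0 h libraries. Col18a1, a basement membrane collagen gene from the collagen list (chr10:76888012-77002390, GRCm39), had 748, 726, 704 and 755 CPM in XY 0 h and 363, 336, 347 and 299 CPM in XY 24 h. It had 179, 158, 177 and 203 CPM in XX 0 h and 229, 253, 274 and 262 CPM in XX 24 h, with a difference of 1.63 (SE 0.15, FDR 8.3e-11). Each XY 24 h library was below each XY 0 h library, and the XX 24 h libraries were all above the XX 0 h libraries, although that smaller change was not called.

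The 7 other Sertoli genes called fell in XY, rose in XX or did both. The growth factor gene Fgf9 went from 44.2–56.0 CPM to 13.8–22.6 CPM in XY, with a difference of 1.31 (SE 0.39, FDR 0.028). Gdnf, which encodes a growth factor for spermatogonial stem cells, went from 42.5–53.3 CPM to 20.1–21.8 CPM in XY, with 0 to 5 counts a library in XX and a difference of 2.18 (SE 0.69, FDR 0.043). Inhbb, the inhibin beta-B subunit gene, fell in XY, with 1.32 (SE 0.26, FDR 0.00049). Nedd9, which encodes an adhesion scaffold protein, rose in XX and fell in XY, with 1.70 (SE 0.24, FDR 1.1e-06), as did Mro, with 2.53 (SE 0.33, FDR 2.6e-07). Vnn1, which encodes a pantetheinase, fell in XY and had a difference of 1.56. Hsd17b1, which encodes a steroid dehydrogenase, had 3.51 (SE 1.06, FDR 0.033), which rests on at most 3 counts a library in XX 0 h. The Fgf9 call was lost without any 1 of 7 of the 16 libraries, at 0.93 to 1.27. The Gdnf call was lost without any 1 of 11 of the 16 libraries, at 1.69 to 2.30. The Hsd17b1 call was lost without any 1 of 8 of the 16 libraries, at 2.69 to 3.44. These 2 values were unstable, since that of Gdnf was 4.01 without XX 0 h F2 and 6.07 without F2 and F3, and that of Hsd17b1 was 6.47 without XX 0 h F5 and 2.51, not called, without F2 and F3.

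The Sertoli transcription factors themselves were not called. Sox9 had 657, 683, 688 and 640.1 CPM in XY 0 h and 411, 316, 292 and 267 CPM in XY 24 h, against 133, 157, 54.7 and 69.5 CPM in XX 0 h and 60.7, 70.2, 66.5 and 87.9 CPM in XX 24 h. It fell in XY, and its difference of 0.49 (SE 0.27, FDR 0.35) did not pass the test, with F2 and F3 the high libraries in XX 0 h. Without F2 and F3 the difference was 1.22 and was called. Differences of 0.82 (SE 0.63, FDR 0.55) for Sox8, 0.05 (SE 0.51, FDR 0.98) for Dmrt1, 1.30 (SE 1.38, FDR 0.7) for the anti-Mullerian hormone gene Amh, 1.09 (SE 0.48, FDR 0.2) for desert hedgehog and 0.59 (SE 0.33, FDR 0.37) for the retinoic acid-degrading enzyme gene Cyp26b1 did not pass either. Dhh was called without XX 0 h F2, at 1.90, and without F2 and F3, at 2.04.

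The 250 bases before and 50 bases after the start of a gene, from RefSeq (GRCm38.p6), were searched on both strands for 6 motifs, and 9891 of the 14543 genes had such a promoter, 353 of them with a positive and 285 with a negative difference. The SOX letters AACAAT stood in 5.95% of promoters of genes with a positive difference, 6.32% of those with a negative difference and 6.98% of all, and the forkhead letters GTAAACA in 2.55%, 3.51% and 3.01%. The letters TGANTCA of AP-1 stood in 9.92% of the promoters of genes with a positive difference, 6.32% of those with a negative difference and 5.81% of all. The Ptgds promoter is shown as an example, with the AP-1 letters in capitals (chr2:25469700-25469999, GRCm38.p6, minus strand).
Ptgds: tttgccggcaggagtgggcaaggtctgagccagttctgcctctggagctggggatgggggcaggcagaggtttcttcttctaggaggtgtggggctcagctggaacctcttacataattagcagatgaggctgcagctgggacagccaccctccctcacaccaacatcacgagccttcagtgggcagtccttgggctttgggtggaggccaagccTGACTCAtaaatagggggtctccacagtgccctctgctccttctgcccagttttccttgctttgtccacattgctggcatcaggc

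Pre-granulosa genes split, with 4 of 14 tested called with a positive difference and 3 with a negative one, and a median difference of -0.05. Over all autosomal genes, 3.31% were called positive and 2.66% negative. The positive group was Irx5, Lgr5, Runx1 and Kitl, all of which fell in XY and passed no test in XX. Irx5, an Iroquois transcription factor gene (chr8:93084253-93102914, GRCm39), had 36.3, 35.6, 38.5 and 36.0 CPM in XX 0 h and 48.2, 47.6, 48.8 and 35.5 CPM in XX 24 h. Its XY libraries held 1.55, 2.30, 0.951 and 1.32 CPM at 0 h and 0, 0.496, 0 and 0.393 CPM at 24 h, and the XX minus XY value at 72 h was 8.36 (SE 0.45, FDR 4e-21). The fall of Irx5 in XY was from 2–4 counts a library to 0–2 counts, and its difference was 2.89 (SE 0.74, FDR 0.0078). Runx1, a transcription factor gene of the supporting lineage (chr16:92398354-92623037, GRCm39), had 86.4, 77.0, 106 and 104 CPM in XX 0 h and 109.7, 91.2, 94.7 and 80.4 CPM in XX 24 h. It had 16.6, 13.3, 10.5 and 15.4 CPM in XY 0 h and 5.36, 2.48, 4.99 and 3.93 CPM in XY 24 h, with a difference of 1.74 (SE 0.32, FDR 0.00018). The XY groups of Irx5 and of Runx1 did not overlap. Lgr5, which encodes an R-spondin receptor, fell from 35.2–50.7 CPM to 6.68–15.6 CPM in XY and had a difference of 1.89 (SE 0.36, FDR 0.00031). Irx3, a relative of Irx5, had a difference of 1.19 (SE 0.40, FDR 0.059) and was not called. The Irx5 call was lost without XY 24 h M4, at 2.34. The Irx3 call was made without any 1 of 4 of the 16 libraries, at 1.27 to 1.504. One of the 4 was XY 24 h M2, at 1.34.

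The 3 pre-granulosa genes with a negative difference, Fst, Bmp2 and Wnt4, were far higher in XX at 0 h and drew closer to XY. Fst, which encodes follistatin, an antagonist of activins (chr13:114588731-114595521, GRCm39), had 205, 256, 298 and 304 CPM in XX 0 h and 94.4, 69.9, 89.0 and 120.2 CPM in XX 24 h. It had 1.04, 2.30, 1.43 and 1.32 CPM in XY 0 h and 3.22, 4.21, 2.68 and 4.72 CPM in XY 24 h, so it fell in XX and had 2–4 counts a library in XY 0 h and 9–17 counts in XY 24 h. Its difference was -2.75 (SE 0.49, FDR 8.7e-05), and XX was still higher at 72 h by 3.05 (SE 0.21, FDR 3.8e-17). Wnt4 (chr4:137004373-137027037, GRCm39) had 389.9, 423, 426 and 486 CPM in XX 0 h and 359, 347, 328 and 353 CPM in XX 24 h. It had 61.2, 51.9, 59.5 and 44.3 CPM in XY 0 h and 117, 147, 106 and 111 CPM in XY 24 h, a rise in XY that gave a difference of -1.47 (SE 0.17, FDR 2e-08). Bmp2, a BMP ligand gene, went from 7.90–15.0 CPM to 24.0–38.9 CPM in XY and had a difference of -1.69 (SE 0.28, FDR 2.6e-05). Foxl2 rose in both sexes, from 48.3, 52.5, 87.9 and 104 CPM to 156, 128, 178 and 143 CPM in XX and from 0.576–1.55 CPM to 1.97–6.94 CPM in XY, and its difference of -0.81 (SE 0.62, FDR 0.55) was not called. Rspo1, the R-spondin 1 gene, had a difference of -0.35 (SE 0.17, FDR 0.26) and was not called.

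WNT signalling genes were mostly negative. Of 20 genes tested in the WNT and R-spondin list, 8 were called with a negative difference and 2 with a positive one. The share called over all autosomal genes was 5.98%, and the median difference of the list was -0.70. The negative group held the ligand genes Wnt4 and Wnt5a, the target and feedback genes Sp5, Axin2 and Nkd1, the effector gene Lef1, and the antagonist genes Dkk3 and Sfrp1. Sp5, a transcription factor gene that responds to WNT (chr2:70305267-70308073, GRCm39), had 52.6, 65.0, 63.2 and 46.9 CPM in XX 0 h and 22.6, 19.4, 26.8 and 21.3 CPM in XX 24 h, and 2.07, 1.73, 0.951 and 2.63 CPM in XY 0 h and 3.93, 4.46, 3.26 and 3.54 CPM in XY 24 h. It fell in XX, with a difference of -2.35 (SE 0.51, FDR 0.0014), and the XX libraries stayed above the XY libraries at both times. Nkd1, a feedback inhibitor gene, had a difference of -1.39 (SE 0.26, FDR 0.00021) and rose in XY, as did Dkk3, with -1.05 (SE 0.33, FDR 0.037). Wnt6, a ligand gene, fell in XY from 294–339.5 CPM to 131–177 CPM and had a difference of 1.07 (SE 0.19, FDR 0.00014). The Dkk3 call was lost without any 1 of 10 of the 16 libraries, at -1.07 to -0.92. It was also lost without XX 0 h F2 and F3, at -1.17. Against a 1.5-fold change, glmTreat called 3 genes of the list negative and 1 positive. Voom and treat called 1 negative and 1 positive, so the negative majority of calls was not kept there. A fit with the replicate number as a term called 5 negative and 2 positive.

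The Sp5 promoter held the TCF/LEF letters ATCAAAG, read on the other strand, and the GATA letters AGATAA at 2 places, all in capitals (chr2:70474673-70474972, GRCm38.p6, plus strand). ATCAAAG stood in 2.83% of promoters of genes with a positive difference, 2.46% of those with a negative difference and 2.99% of all, and AGATAA in 8.22%, 7.72% and 7.29%.
Sp5: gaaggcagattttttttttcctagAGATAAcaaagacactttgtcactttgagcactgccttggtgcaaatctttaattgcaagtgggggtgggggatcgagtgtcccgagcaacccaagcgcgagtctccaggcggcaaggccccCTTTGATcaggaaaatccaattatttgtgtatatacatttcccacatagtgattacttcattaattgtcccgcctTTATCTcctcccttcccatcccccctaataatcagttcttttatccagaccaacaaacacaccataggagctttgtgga

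**Figure D4:**
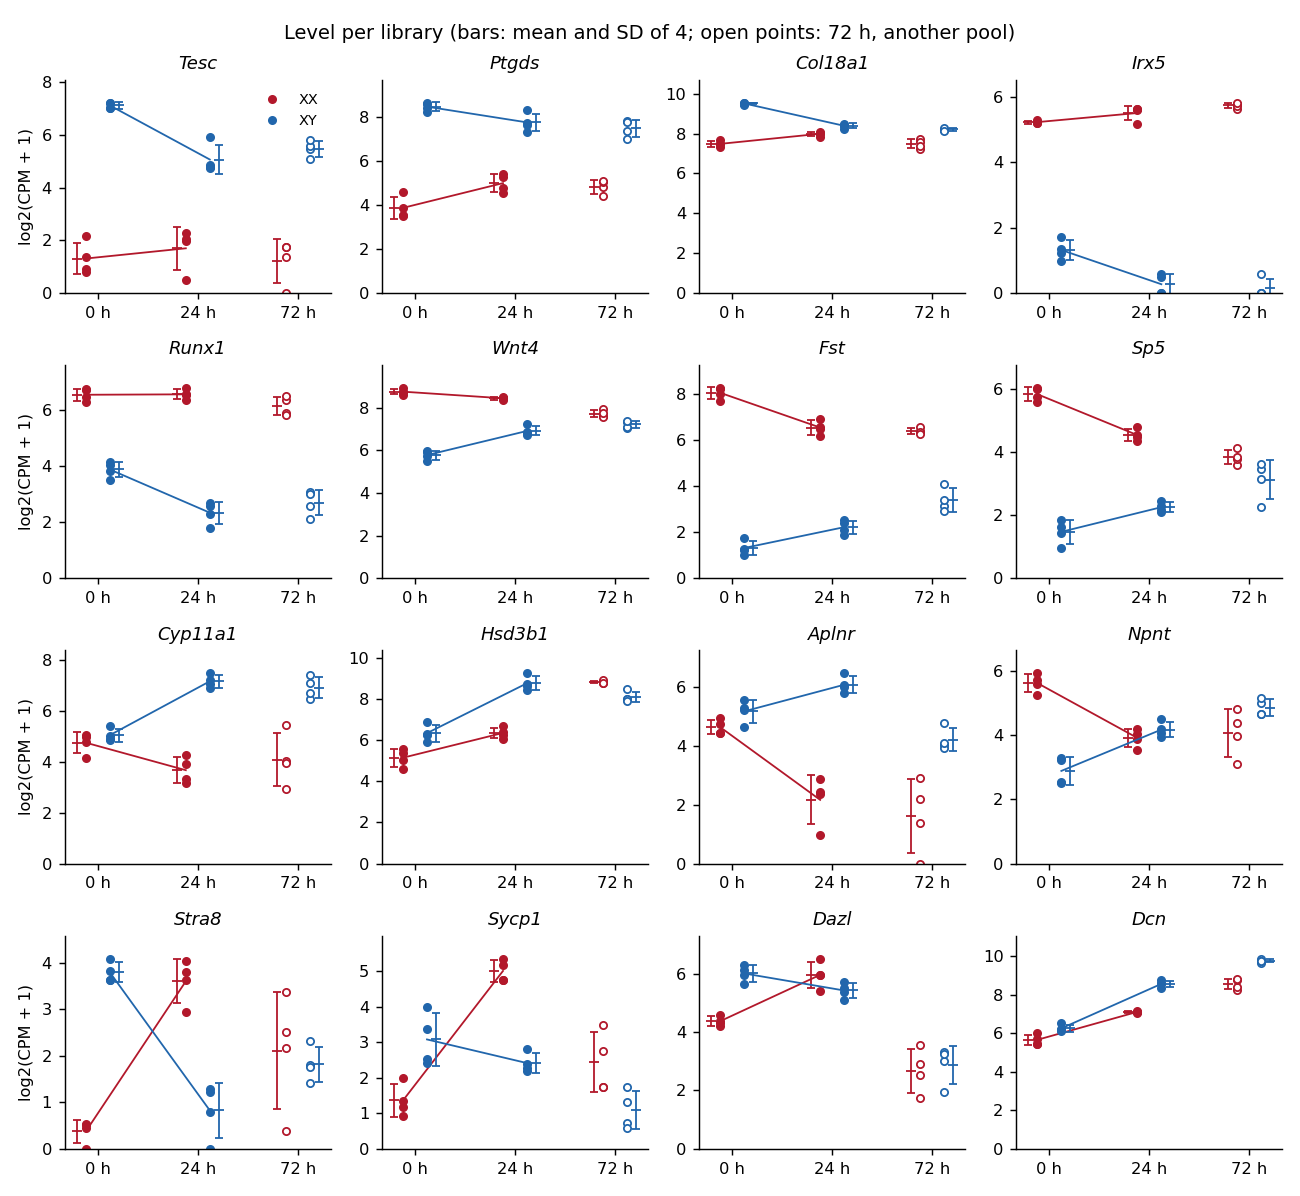
Points are libraries, on a log2(CPM + 1) scale, for XX (red) and XY (blue) at 0 h, 24 h and 72 h, with the mean and SD of each group of 4 beside them and a line from 0 h to 24 h. Tesc, Ptgds and Col18a1 descend in blue, Fst and Sp5 descend in red, the blue and red lines of Cyp11a1 and Aplnr part, and those of Stra8 and Sycp1 cross.

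Foetal Leydig genes were called in both directions, 3 positive and 3 negative of 12 tested, with a median difference of -0.35. Over all autosomal genes, 3.31% were called positive and 2.66% negative. The negative group held 2 enzyme genes of steroid synthesis and a hormone receptor gene, all of which rose in XY. Cyp11a1 (chr9:57913694-57935933, GRCm39) had 29.0, 27.7, 30.9 and 41.7 CPM in XY 0 h and 132, 147, 118 and 177 CPM in XY 24 h. It had 30.4, 26.7, 32.4 and 16.9 CPM in XX 0 h and 7.98, 14.0, 9.09 and 18.1 CPM in XX 24 h. The sexes overlapped at 0 h, and at 24 h every XY library was above every XX library. Cyp11a1 rose in XY and fell in XX, its difference was -3.18 (SE 0.45, FDR 1.2e-06), and the XX minus XY value at 72 h was -2.50 (SE 0.29, FDR 6.5e-10). Hsd3b1, which encodes 3-beta-hydroxysteroid dehydrogenase (chr3:98757367-98767116, GRCm39), had 75.2, 58.2, 77.5 and 118 CPM in XY 0 h and 423, 347, 389 and 603 CPM in XY 24 h. It had 47.0, 31.2, 40.1 and 23.3 CPM in XX 0 h and 75.0, 65.2, 83.7 and 101 CPM in XX 24 h, so it rose in both sexes and more in XY, with a difference of -1.20 (SE 0.29, FDR 0.0043). At 72 h it was higher in XX, by 0.71 (SE 0.17, FDR 0.0011). Without XX 0 h F2 and F3 the Hsd3b1 difference was -0.98 and was not called, which left 2 negative Leydig genes. Lhcgr, the luteinising hormone receptor gene, rose in XY from 2.07–8.34 CPM to 14.7–24.5 CPM and had a difference of -3.18 (SE 0.51, FDR 1.4e-05).

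The positive Leydig group held Star, Scarb1 and Fdxr, whose products carry cholesterol into mitochondria, take up lipoprotein cholesterol and pass electrons to CYP11A1. Star rose in XX from 21.6–32.5 CPM to 49.3–69.7 CPM and held 35.2–53.8 and 45.6–59.7 CPM in XY, with a difference of 0.94 (SE 0.27, FDR 0.024). Scarb1 rose in XX, with 0.68 (SE 0.19, FDR 0.016), and Fdxr fell in XY, with 0.92 (SE 0.20, FDR 0.0011). The Star call was lost without any 1 of 5 of the 16 libraries, at 0.84 to 0.89. The Scarb1 call was lost without XY 24 h M4, at 0.58. Against a 1.5-fold change, neither glmTreat nor voom and treat called Star, Scarb1 or Fdxr. Cyp17a1, which encodes the enzyme of the step to androgens, had 25.9, 27.7, 33.8 and 91.3 CPM in XY 0 h and 82.2, 85.5, 95.3 and 124 CPM in XY 24 h, with M6 the high library at 0 h. Its difference of -0.11 (SE 0.48, FDR 0.94) was not called. Insl3, a Leydig hormone gene, had at most 2.75 CPM in any library of the contrast and was not tested.

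The promoter of Hsd3b1 is shown with its GATA letters, on the other strand, in capitals (chr3:98859745-98860044, GRCm38.p6, minus strand). The NR5A1 letters AAGGTCA, which it does not hold in this window, stood in 4.82% of promoters of genes with a positive difference, 2.11% of those with a negative difference and 3.82% of all.
Hsd3b1: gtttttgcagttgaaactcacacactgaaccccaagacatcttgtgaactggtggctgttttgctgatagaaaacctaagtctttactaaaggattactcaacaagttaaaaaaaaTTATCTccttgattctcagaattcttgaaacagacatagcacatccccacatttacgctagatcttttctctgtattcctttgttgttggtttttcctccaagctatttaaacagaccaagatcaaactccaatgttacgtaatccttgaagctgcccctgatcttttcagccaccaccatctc

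Interstitial genes differed in the direction of Cyp11a1. Of 12 interstitial progenitor genes tested, 4 were called, all with a negative difference, beside 5.98% of all autosomal genes, and the median was -0.56. Dcn, which encodes the matrix proteoglycan decorin (chr10:97315275-97358155, GRCm39), had 69.97, 68.6, 73.7 and 90.4 CPM in XY 0 h and 373, 426, 321 and 392 CPM in XY 24 h. It had 64.6, 43.2, 42.4 and 50.7 CPM in XX 0 h and 133, 143, 138 and 134 CPM in XX 24 h. It rose in both sexes without overlap, and more in XY, with a difference of -0.88 (SE 0.18, FDR 0.00089). Igf1, the insulin-like growth factor gene, rose in XY from 44.8–52.4 to 157–176 CPM and had a difference of -1.29 (SE 0.18, FDR 8.5e-07). Nes, the intermediate filament gene of progenitors, had -0.71 (SE 0.18, FDR 0.0063), and Wnt5a had -0.68 (SE 0.19, FDR 0.017). The Wnt5a call was lost without XY 0 h M2 or XY 24 h M3, at -0.58 to -0.57. Tested against a 1.5-fold change, glmTreat called 1 interstitial gene, and voom and treat called none. A fit with the replicate number as a term called 2 of them.

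The hedgehog pathway list had a median difference of -0.38. Boc, a co-receptor gene, rose in XY from 21.3–29.97 CPM to 40.1–52.0 CPM and was called, with -0.88 (SE 0.22, FDR 0.0061). The pathway targets Ptch1, with -0.44 (SE 0.25, FDR 0.36), and Gli1, with -0.70 (SE 0.36, FDR 0.31), were not called.

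Calls among vessel genes were close to the share of all autosomal genes (5.98%), although their median differences were negative. The medians were -0.41 for endothelial genes and -0.53 for pericyte and smooth muscle genes, beside -0.01 for all autosomal genes. This shift was not tested. Of 18 endothelial genes, 1, Eng, which encodes endoglin, was called, with -1.996 (SE 0.44, FDR 0.0015). Of 12 pericyte and smooth muscle genes, 1, Rgs5, a pericyte regulator of G-protein signalling, was called, with -2.08 (SE 0.40, FDR 0.00033). Both fell in XX and were not called in XY. Of 12 Notch genes none was called by edgeR or DESeq2, 2 had an unadjusted p under 0.05, and Notch3, the member with the largest size, had -0.87 (SE 0.30, FDR 0.07). In the collagen and basement membrane list, 2 of 17 were positive (Col18a1 and Lama1, with 0.86 (SE 0.23, FDR 0.011)) and 3 were negative. The 3 were the fibrillar collagen genes Col1a1, with -0.61 (SE 0.18, FDR 0.032), and Col5a1, with -0.64 (SE 0.20, FDR 0.036), and the laminin gene Lama5, with -0.88 (SE 0.26, FDR 0.027). Leaving out single libraries moved the negative count in this list between 0 and 4. The Lama1 call was lost without XY 0 h M5, at 0.70. The Lama5 call was lost without any 1 of 4 of the 16 libraries, at -0.82 to -0.79. The Col1a1 call was lost without any 1 of 7 of the 16 libraries, at -0.61 to -0.47. The Col5a1 call was lost without any 1 of 7 of the 16 libraries, at -0.64 to -0.49. Without XX 0 h F2 and F3, Lama5 (-0.90) and Col1a1 (-0.63) were not called.

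Meiotic entry genes had the highest median difference of the 27 lists. Of 8 meiotic entry genes tested, 6 were called, all with a positive difference, beside 5.98% of all autosomal genes, and that median was 3.41. Stra8, the gene induced by retinoic acid that licenses meiosis (chr6:34897098-34916279, GRCm39), had 0.428, 0.445, 0 and 0.375 CPM in XX 0 h and 11.5, 13.0, 6.70 and 15.4 CPM in XX 24 h. It had 16.1, 13.3, 11.4 and 11.4 CPM in XY 0 h and 1.43, 0.744, 1.34 and 0 CPM in XY 24 h. The sexes therefore crossed, with no overlap at either time, and the difference was 8.59 (SE 0.88, FDR 5.5e-10), resting on at most 1 count a library in XX 0 h. Sycp1, which encodes a protein of the synaptonemal complex (chr3:102725709-102843455, GRCm39), had 1.28, 0.89, 1.54 and 3.004 CPM in XX 0 h and 39.9, 25.8, 25.8 and 35.5 CPM in XX 24 h. It had 9.33, 15.0, 4.76 and 4.39 CPM in XY 0 h and 6.08, 4.21, 3.84 and 3.54 CPM in XY 24 h, with a difference of 5.04 (SE 0.60, FDR 1.8e-08), and every XX 24 h library was above every other library. The meiotic cohesin gene Smc1b had 3.90 (SE 0.39, FDR 3.7e-10), and the synaptonemal complex genes Syce1, Sycp2 and Sycp3 had 3.95 (SE 0.74, FDR 0.00022), 2.92 (SE 0.88, FDR 0.031) and 2.15 (SE 0.65, FDR 0.032). All 6 rose in XX, and of them Stra8 fell in XY. The Sycp2 call was lost without any 1 of 5 of the 16 libraries, at 2.49 to 2.75. The Sycp3 call was lost without any 1 of 7 of the 16 libraries, at 1.85 to 2.14. Without XX 0 h F2 and F3, Sycp2 (2.07) and Sycp3 (2.01) were not called.

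These genes are known for their part in germ cells, which the sort was meant to remove, and germline transcripts moved as well. Stra8 was higher in XY at 0 h, with an XX minus XY value of -5.02 (SE 0.72, FDR 1.3e-07). In sorted germ cells at E12.5, the study lists Stra8 among the genes higher in XX. Of 10 germline identity genes tested, 3 were called, all positive, beside 5.98% of all autosomal genes. Dazl, an RNA-binding protein gene of germ cells (chr17:50586366-50600664, GRCm39), had 18.8, 17.4, 23.1 and 19.9 CPM in XX 0 h and 61.1, 61.3, 41.1 and 90.3 CPM in XX 24 h, and 78.3, 68.0, 60.9 and 49.2 CPM in XY 0 h and 51.5, 33.0, 40.3 and 44.8 CPM in XY 24 h. It rose in XX, and its difference was 2.30 (SE 0.36, FDR 1.1e-05). Ddx4, the vasa homologue gene, had 2.66 (SE 0.74, FDR 0.017), and Dppa5a, a pluripotency-associated gene, had 1.31 (SE 0.41, FDR 0.043). All 13 germline markers together summed to 125 to 162 CPM in XX 0 h, 144 to 285 in XX 24 h, 235 to 379 in XY 0 h and 159 to 252 in XY 24 h, and 1 member, Nanos2, had no count in XX 24 h or XY 0 h. The part of residual germ cells in the meiotic result was not tested. Without XX 0 h F2 and F3, 4 meiotic and 2 germline genes were called. The Ddx4 call was lost without XX 0 h F5, at 2.51. The Dppa5a call was lost without any 1 of 9 of the 16 libraries, at 1.09 to 1.28. Without F2 and F3, Dppa5a was 1.37 and was not called.

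The Stra8 promoter is shown for the gene with the largest positive difference, with the NR5A1 letters AAGGTCA in capitals (chr6:34920698-34920997, GRCm38.p6, plus strand).
Stra8: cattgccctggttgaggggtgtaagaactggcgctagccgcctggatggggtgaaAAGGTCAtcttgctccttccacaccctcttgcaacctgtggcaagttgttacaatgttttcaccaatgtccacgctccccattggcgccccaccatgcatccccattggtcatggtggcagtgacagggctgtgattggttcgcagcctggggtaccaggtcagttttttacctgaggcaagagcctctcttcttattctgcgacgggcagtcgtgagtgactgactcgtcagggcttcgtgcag

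BMP, FGF and ERK feedback genes were called in both directions, in larger shares than the 5.98% of all autosomal genes, a difference that was not tested. In the BMP list, 3 of 17 were negative and 1 positive, with a median of -0.58. Id3, a BMP target gene that encodes an inhibitor of differentiation factors, had 264, 272, 218 and 197 CPM in XX 0 h and 112, 119.7, 99.5 and 81.2 CPM in XX 24 h. It had 278, 252, 225 and 258 CPM in XY 0 h and 296, 194, 262 and 300.4 CPM in XY 24 h, so it fell in XX without overlap, with a difference of -1.25 (SE 0.17, FDR 6.6e-07). Its relative Id1 fell in XX too, with -1.02 (SE 0.24, FDR 0.0031), and the ligand gene Bmp7 fell in XY, with 0.88 (SE 0.26, FDR 0.024). In the FGF list, Fgf9 and Fgf18, with 1.27 (SE 0.40, FDR 0.039), were positive and the receptor gene Fgfr2, with -1.51 (SE 0.33, FDR 0.0015), was negative, of 11 tested. Of 12 ERK feedback genes, the transcription factor genes Etv4 and Etv5 were positive, with 2.06 (SE 0.49, FDR 0.0039) and 1.23 (SE 0.28, FDR 0.0021), and both fell in XY. Phlda1, which fell in both sexes and more in XX, had -0.83 (SE 0.21, FDR 0.0078). The Bmp7 call was lost without any 1 of 5 of the 16 libraries, at 0.79 to 0.83. The Fgf18 call was lost without any 1 of 8 of the 16 libraries, at 0.89 to 1.29. M2 of XY 24 h was among these libraries for both, at 0.80 and 1.26. Without XX 0 h F2 and F3, Id1 (-0.53) and Phlda1 (-0.68) were not called.

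In the activin and inhibin list, Inhbb and Inha were positive and Fst was negative, of 10 tested. Over all autosomal genes 5.98% were called, for comparison with this list and the retinoic acid list. Inha, the inhibin alpha gene, rose in XX from 96.6–173 CPM to 363–555 CPM and in XY from 155–208 CPM to 284–357 CPM, with a difference of 1.001 (SE 0.21, FDR 0.00071). In the retinoic acid list, the synthesis gene Aldh1a1 rose in XX and was positive, with 0.96 (SE 0.16, FDR 5.2e-05). The synthesis gene Aldh1a3 and the retinol receptor gene Stra6 were negative, with -1.63 (SE 0.48, FDR 0.027) and -1.29 (SE 0.39, FDR 0.033), of 12 tested. Those 2 calls rest on 2.30 to 19.1 CPM, and leaving out single libraries gave 0 to 2 negative calls in this list. The Aldh1a3 call was lost without any 1 of 7 of the 16 libraries, at -1.58 to -1.40. One of the 7 was XY 24 h M2. The Stra6 call was lost without any 1 of 9 of the 16 libraries, at -1.30 to -1.12.

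Lists of cell cycle, metabolism and stress genes held 0 to 2 calls each. The calls were 2 of 11 ER stress, 2 of 15 glycolysis, 2 of 23 cell cycle and 1 of 14 immediate early genes. These shares were above the 5.98% of all autosomal genes, which was not tested. Of 23 cell cycle and replication genes, 15 fell in XY and 3 in XX, beside 5.53% and 2.36% of all autosomal genes. The median difference of the list was 0.37, and 8 members had an unadjusted p under 0.05. The 2 called, both with a positive difference, were Rrm2 with 0.75 (SE 0.16, FDR 0.00092) and Cdc20 with 0.73 (SE 0.22, FDR 0.037). Of 14 cholesterol synthesis genes, 13 rose in XX and 14 in XY, and none was called in the contrast by edgeR or DESeq2, with 3 at an unadjusted p under 0.05 and Idi1 the member of largest size at -0.97 (SE 0.45, FDR 0.23). Of 15 glycolysis and hypoxia genes, 8 fell in XX and 9 in XY, Aldoa was positive, with 0.67 (SE 0.15, FDR 0.0015), and Ndrg1 was negative, with -1.52 (SE 0.28, FDR 0.00017). Of 11 ER stress and amino acid response genes, the chaperone gene Hspa5, with 0.67 (SE 0.13, FDR 0.00025), and the serine synthesis gene Psat1, with 1.09 (SE 0.25, FDR 0.0034), were positive. Of 14 immediate early genes, Btg2 was positive, with 0.88 (SE 0.21, FDR 0.0039). Of 9 early gonad transcription factor genes none was called by edgeR or DESeq2, 5 had an unadjusted p under 0.05, and Six4 had the largest size at 0.62 (SE 0.51, FDR 0.59). The Cdc20 call was lost without any 1 of 10 of the 16 libraries, at 0.59 to 0.73. The Aldoa value without XX 24 h F9 or XY 24 h M3 was 0.58, below 1.5-fold.

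Blood and epithelial lists held 0 to 2 calls each. The calls were 1 of 10 erythroid, 1 of 6 duct epithelium and 2 of 8 coelomic epithelium genes, and no macrophage gene. Apart from the macrophage list, these shares of short lists were above the 5.98% of all autosomal genes, which was not tested. All 10 erythroid genes tested fell in both sexes, with median changes of -3.39 in XX and -2.39 in XY. One of them, the adult beta-globin gene Hbb-bt, was called, with -1.46 (SE 0.43, FDR 0.024), and DESeq2 called none. The Hbb-bt call was lost without any 1 of 7 of the 16 libraries, at -1.40 to -1.11. Of 11 macrophage genes none was called by edgeR or DESeq2, 1 had an unadjusted p under 0.05, and Mrc1 had the largest size at -1.90 (SE 0.81, FDR 0.18). Of 6 duct epithelium genes, Epcam, an epithelial adhesion gene, rose in XX from 7.57–13.3 CPM to 21.5–39.7 CPM and was positive, with 1.42 (SE 0.35, FDR 0.0054). Of 8 coelomic epithelium genes, the keratin gene Krt8 was positive, with 1.58 (SE 0.30, FDR 0.00025), and Lrrn4 was negative, with -1.06 (SE 0.27, FDR 0.0091).

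**Figure D5:**
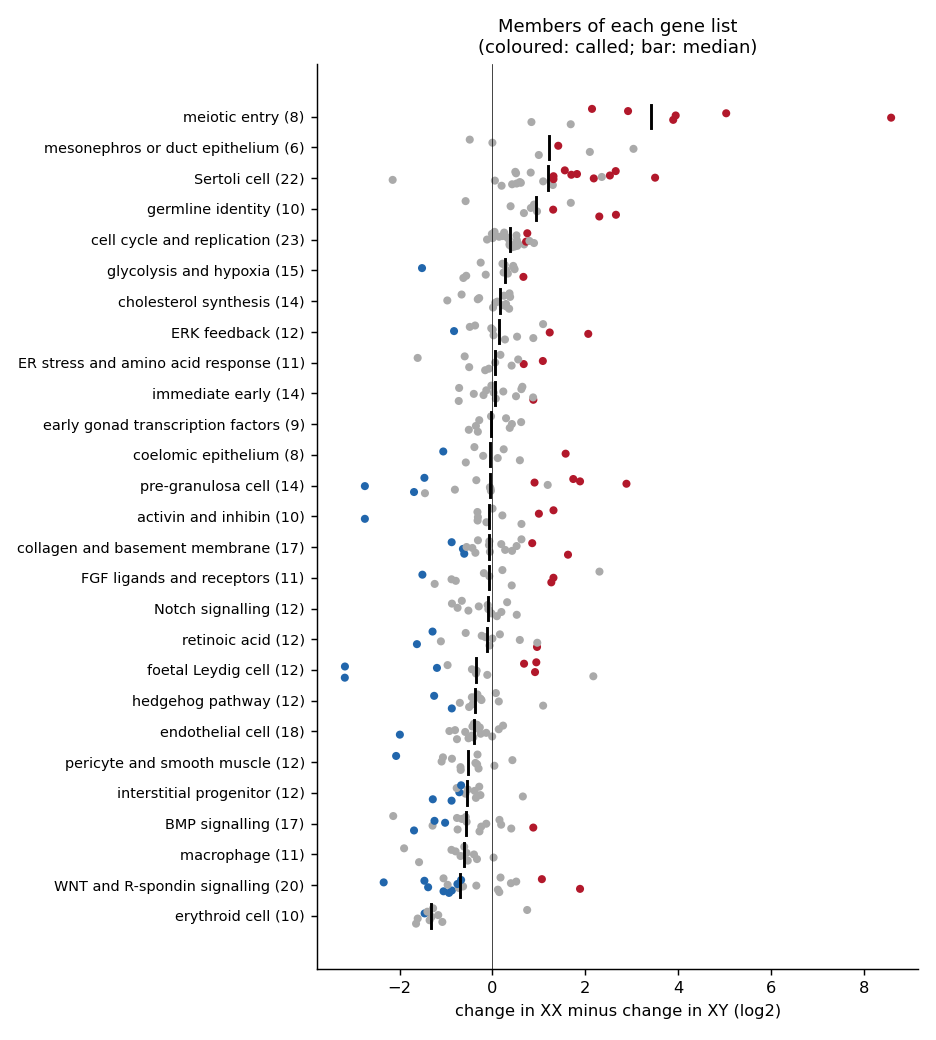
Each point is a tested autosomal member of a gene list, placed by its sex-by-time difference (log2), red or blue where called and grey where not, with a bar at the list's median and the number tested in brackets. Meiotic entry (3.41) and Sertoli cell (1.20) genes sit to the right, and WNT (-0.70) and erythroid (-1.33) genes to the left.

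The largest differences among protein-coding genes with a mean of at least 5 CPM fell on genes of several kinds. On the positive side, Slc35f1, which encodes a solute carrier family member, had 4.28, 2.67, 2.31 and 1.13 CPM in XX 0 h and 55.2, 40.7, 41.1 and 28.8 CPM in XX 24 h. Its XY libraries held 6.22, 4.03, 3.33 and 1.76 CPM at 0 h and 0, 1.49, 3.26 and 5.11 CPM at 24 h. Its difference was 4.58 (SE 0.70, FDR 6.1e-06), and XX libraries at 72 h held 44.6–61.7 CPM against 0.332–2.98 CPM in XY. Cacng5, a calcium channel subunit gene, rose in XX from 0–1.88 CPM to 21.5–29.7 CPM and was 0.575–1.79 CPM in XY 24 h, with a difference of 3.96 (SE 1.08, FDR 0.014). Hamp2, a hepcidin gene, rose in XX from 0–4.45 CPM to 13.0–24.4 CPM, with 3.45 (SE 0.70, FDR 0.00061). The sexes had parted at 72 h for Slc35f1 and Cacng5, which were called there, and Hamp2 was not called there. The Cacng5 call was lost without XY 0 h M2, at 3.19.

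Other positive genes were higher in XY at 0 h and fell in XY. Pnmt, which encodes the enzyme that makes adrenaline, had 31.1, 23.6, 14.3 and 8.34 CPM in XY 0 h and 0, 0.744, 0 and 0 CPM in XY 24 h. It had 5.13, 4.90, 2.31 and 3.004 CPM in XX 0 h and 2.08, 7.60, 10.5 and 8.28 CPM in XX 24 h, with a difference of 7.06 (SE 1.00, FDR 1.2e-06). Mall went from 37.8–51.3 CPM to 3.93–6.44 CPM in XY and had 0 to 6 counts a library in XX. The chemokine gene Ccl17 went from 19.3–36.3 to 2.15–3.15 CPM in XY, Bricd5 from 31.9–55.3 to 15.0–21.5 CPM, Fstl4 from 17.9–24.6 to 4.96–9.30 CPM and the proteoglycan gene Cspg5 from 22.8–29.5 to 2.86–8.67 CPM. These 6 genes fell in XY. In XX, Bricd5 had 0–1 counts a library at 0 h and 2–4 at 24 h, and Fstl4 had 0–2 and 0–7. Their differences rest in part on these counts, through fitted XX changes of 1.94 and 1.61 that were not called. Tox2 rose in XX, from 0–2 counts a library to 6–13 counts, with 4.08 (SE 0.89, FDR 0.0014). Scube2 and the protease gene Cela3b rose in XX and fell in XY, with 3.15 (SE 0.54, FDR 5.2e-05) and 3.37 (SE 0.74, FDR 0.0016). The Fstl4 call was lost without any 1 of 4 of the 16 libraries, at 2.89 to 3.09. The Bricd5 call was lost without any 1 of 5 of the 16 libraries, at 2.99 to 3.73. The Ccl17 call was lost without XX 24 h F4, at 2.42. Without XX 0 h F2 and F3, Fstl4 (2.88), Bricd5 (3.27) and Ccl17 (2.24) were not called.

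On the negative side, Aplnr, the apelin receptor gene of endothelial and other cells (chr2:84966569-84970267, GRCm39), had 20.5, 20.5, 25.4 and 29.3 CPM in XX 0 h and 4.17, 6.38, 0.957 and 4.34 CPM in XX 24 h. It had 37.8, 23.6, 35.7 and 45.7 CPM in XY 0 h and 61.9, 86.5, 65.6 and 53.5 CPM in XY 24 h. It fell in XX and rose in XY, with no overlap between times in either sex, and its difference was -3.36 (SE 0.44, FDR 2e-07). Npnt, which encodes the matrix protein nephronectin (chr3:132587506-132656257, GRCm39), had 36.8, 50.8, 59.4 and 47.3 CPM in XX 0 h and 15.3, 17.2, 10.5 and 13.8 CPM in XX 24 h. It had 4.66, 8.64, 4.76 and 8.34 CPM in XY 0 h and 15.7, 21.3, 17.3 and 14.2 CPM in XY 24 h, so that a gap without overlap at 0 h became an overlap at 24 h, with a difference of -3.11 (SE 0.35, FDR 5.1e-09). At 72 h it was higher in XY, with an XX minus XY value of -0.69 (SE 0.23, FDR 0.018).

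Several negative genes rose in XY from a low start. Pdlim3, a muscle-associated LIM protein gene, went from 1.43–5.70 CPM to 27.4–51.6 CPM in XY and was 0.394–2.78 CPM in XX 24 h, with a difference of -3.07 (SE 0.73, FDR 0.0038). Col25a1, a transmembrane collagen gene, went from 4.83–7.14 CPM to 24.0–47.8 CPM in XY, with -2.64 (SE 0.59, FDR 0.0019). Both were higher in XY at 72 h, at 156–176 CPM and 91.5–127 CPM. The Ras effector gene Rassf5, the lipoprotein receptor gene Lrp8 and the exchange factor gene Mcf2l rose in XY too, with -3.48 (SE 0.83, FDR 0.0043), -2.37 (SE 0.64, FDR 0.013) and -2.36 (SE 0.41, FDR 5.2e-05). Trim7, Thbs2 and Sphkap rose in XY and were higher in XX at 0 h, with -2.72 (SE 0.62, FDR 0.0025), -2.54 (SE 0.59, FDR 0.0028) and -2.46 (SE 0.50, FDR 0.00063). The cannabinoid receptor gene Cnr1 fell in XX, from 10.7–21.0 CPM to 3.83–5.55 CPM, with -2.47 (SE 0.59, FDR 0.0041). The Rassf5 call was lost without XX 0 h F5, at -2.94. The Pdlim3 call was lost without XX 0 h F2, at -2.44. The Lrp8 call was lost without XX 0 h F2, at -2.10. Without F2 and F3, Lrp8 was -1.67 and was not called.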

How the data were processed

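Somatic (GFP-negative) RNA-seq libraries were used, 16 of them in the contrast and 39 in the fit. Per the labels and the study's methods, the authors used scPipe to demultiplex, Rsubread to align (GRCm39) and a strand-aware assignment to annotated exons, and each unique molecular identifier was counted once, and the deposited values are raw counts per gene. One column of per-sample values, from a library that the labels do not name, was not used. Of 42422 genes in the table, 40391 were matched by ID to GENCODE M39 (GRCm39), and autosomal means chromosomes 1 to 19.

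Counts were filtered with filterByExpr, scaled by TMM and fitted with edgeR 4.0.16 (R 4.3.3, limma 3.58.1) with 10 group means, followed by quasi-likelihood tests with Benjamini-Hochberg adjustment over all 15390 genes tested. Standard errors (SE) were the log2 value divided by the root of its F statistic. The edgeR test was chosen in place of the study's own voom and treat, which can also be run on these counts. Voom and treat was run as an alternative, as were glmTreat, DESeq2 1.42.0, other scalings, filters, sets of libraries and a replicate block. The script was tested on simulated data. The totals of 1380707 to 4836550 counts limit precision for genes of a few counts. Replicates differed by more than sampling noise in all 24 pairs (chi-square per degree of freedom 1.92 to 7.69). The labels do not say that replicates came from separate litters, so p-values measure the spread between these pools.

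Named genes were the 15 largest called differences in each direction among protein-coding genes with a mean of at least 5 CPM, up to 6 called members of each list, the member of largest size where none was called, and a fixed set of sex-determination, steroid and germ cell genes. Col18a1, Wnt5a and other list members entered by the list rule, and Vnn1, Kitl, Axin2, Lef1 and Sfrp1, outside the rule, were named as members of their lists. The contrast, the gene lists and the promoters shown were chosen with earlier results of these data known. Some genes of these lists are not reported here.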

Additional observations from a re-analysis of the deposited data

Results flagged for a closer look

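The change over 24 h differed between XX and XY in 869 autosomal genes by the test of that difference itself. Within the 4 groups of the contrast, Dixon's ratio of gap to range was taken for each of the 109 genes examined. It set 1 library apart from the other 3 in 16 of 436 groups, or 3.67%. The nominal rate of about 1 in 20 is for independent, normally distributed values. Some groups here held only a few counts, and the same 16 libraries recur over all genes, so that rate is not a matched comparison. Library M2 of XY 24 h was the high one for Dmrt1 (26.5 CPM), Tesc (59.0 CPM), Btg2 (364 CPM) and Hspa5 (872 CPM). In the other XY libraries, M3 at 24 h was high for Pnmt (0.744 CPM), M4 at 24 h was low for Rgs5 (8.63 CPM), M5 at 0 h was high for Col25a1 (7.14 CPM) and low for Wnt6 (294 CPM), and M6 at 0 h was high for Cyp17a1 (91.3 CPM). Among XX 24 h libraries, F5 was high for Cela3b (13.5 CPM) and Amh (0.981 CPM), F9 was low for Irx5 (35.5 CPM) and F4 was high for Idi1 (10.4 CPM). Among XX 0 h libraries, F4 was low for Stra8 (0 CPM), F5 was high for Hsd17b1 (1.13 CPM) and F2 was low for Lgr5 (62.4 CPM).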

How the results depend on the processing

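The 869 calls (482 positive, 387 negative) became 246 (149 and 97) with glmTreat and 114 (93 and 21) with voom and treat, which test against a 1.5-fold change. Under these, the genes called over time numbered 346 and 199 in XX and 664 and 411 in XY. Those called at 72 h on the side of the difference numbered 90 and 43, and on the other side 15 and 2. The other alternatives gave 799 to 957 calls, apart from the replicate block, and leaving out 1 library in turn gave 735 (without XY 24 h M3) to 908 (without XY 24 h M2), with 412 to 508 positive and 304 to 400 negative. None of the 869 genes changed sign under any alternative that tested it. Total counts without a composition factor gave 45.9% positive calls against 55.5% and moved the median of all autosomal genes from -0.01 to -0.08. Leaving out XX 0 h F2 and F3 together, chosen after the data were seen, gave 799 calls, 626 of them shared.

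Deviations of the 16 pairs of libraries sharing a replicate number correlated at -0.15 to 0.11, with 1 pair over 0.1. Pairs with different numbers were not examined, so these values cannot decide whether replicate numbers paired the samples. A fit with the replicate block called 620 genes (361 positive, 259 negative), of which 581 were shared.

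Over 109 genes and 27 alternatives, 2593 of 2942 values kept their direction and call, 319 lost the call, 17 gained one and 13 changed sign. The sign changes were in 3 genes not called, and the cause was not tested. Dmrt1 went from 0.05 to -0.023 with total counts and, over single libraries left out, lay between -0.10 and 0.33 (without XY 24 h M2), with -0.08 without XX 0 h F4, -0.10 without XY 0 h M2, -0.02 without XX 24 h F4 or XY 24 h M3, and -0.05 without XY 24 h M4 or M5. Amh went from 1.30 to -1.60 without XX 24 h F5 and 1.74 without XX 0 h F3. Cyp17a1 went from -0.11 to 0.077, 0.05 and 0.0065 without XY 0 h M2, M3 and M5, -0.75 without XY 0 h M6, 0.02 without XY 24 h M5 and 0.17 without XX 0 h F2 and F3. No list median moved beyond its members' median SE under RLE scaling or total counts.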

Other observations

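On the X chromosome, outside the autosomal set, 40 of 583 genes tested were called for the same contrast.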
